A study of Mus musculus with 22 samples.

Results

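The 9 genes described here encode isozymes of glycolysis and gluconeogenesis: Hk1, Hk2 and Hk3 (hexokinases), Pfkp (phosphofructokinase, platelet type), Fbp1 (fructose-1,6-bisphosphatase), Aldoa (aldolase A), Eno1 and Eno3 (enolases) and Pkm (pyruvate kinase, muscle type). They are 9 of the 31017 gene symbols counted in these libraries. They were listed because of their levels in circulating cells against solid tissues and in marker-gated cell classes, so those levels are given as a description with no test. The Nalcn genotypes within blood and within tissue did not enter the choice and are tested. A list of 36 other genes of the same pathway is set beside the 9.

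The libraries are droplet-based single-cell RNA libraries of 22 samples from mice without tumours. All mice carried Prom1-CreERT2, a tamoxifen-activated Cre recombinase under the Prom1 promoter, and Rosa26ZSG, a ZsGreen reporter that stays on in cells descended from recombined cells. Blood cells sorted as ZSG+, called non-tumour circulating ZSG+ cells (ntCZC), gave 10 libraries, of which 2 were Nalcn wild type (wt), 4 Nalcn-het and 4 Nalcn-null, from mice aged 551 to 649 days. Hashtagged suspensions of lung, stomach, kidney, liver and either epididymis or uterus gave 9 tissue libraries, of which 5 were wt, 2 het and 2 null, from mice aged 551 to 654 days. A peripheral blood mononuclear cell (PBMC) library came from a wt male aged 120 days. A further 2 tissue libraries had contradictory genotype labels and entered no comparison. The Nalcn allele is a conditional one, so its deletion is limited to cells in which Prom1-driven Cre had acted. The tissue suspensions are not described as sorted for the reporter. In tissue, het and null therefore name the genotype of the mouse, and the share of cells with the deletion was not measured. The ntCZC were chosen by the reporter and the tissue suspensions held mixed cell types, so sorting and organ of origin cannot be told apart in a comparison of the 2 kinds.

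The ntCZC libraries held 50 to 621 barcodes and 161541 to 2600526 unique molecular identifiers (UMIs), and the tissue libraries 1856 to 27857 barcodes and 8571019 to 139793927 UMIs. The ntCZC wt 3 library was the shallowest, with 73.5% of its UMIs from haemoglobin genes and 0 UMIs in nonclassical monocyte-like barcodes. The library labelled tissue null 3 was labelled female and taken with uterus, but it carried Y-linked and epididymal transcripts, and comparisons with the null tissue group, of which it is 1 of 2 libraries, are given with and without it. It is included in the means over tissue libraries. No label names an animal. Each n is therefore a number of libraries, and p-values measure the spread between libraries, which may be technical. No more than 2.6% of the barcodes of the smaller library were shared in any of the 231 pairs of libraries.

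Glycolysis splits glucose into pyruvate, and most of its steps can be carried by several isozymes that are encoded by separate genes and used by different tissues. Hexokinases trap glucose as glucose 6-phosphate, phosphofructokinase commits it to the pathway, aldolase splits the 6-carbon sugar, enolase forms phosphoenolpyruvate and pyruvate kinase ends the pathway. Fructose-1,6-bisphosphatase runs the phosphofructokinase step backwards in gluconeogenesis, a task of the liver and the kidney cortex. Eno1 encodes the alpha enolase found in most cells, Eno2 the gamma enolase known from neurons and Eno3 the beta enolase known best from skeletal muscle.

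The enolase genes are alike enough that it matters whether their reads can be told apart. Eno1 (chr4:150236721-150248879, plus strand, mm10) and Eno3 (chr11:70657202-70662513, plus strand, mm10) shared 999 of 1302 aligned coding bases, an identity of 76.7%. The last 60 coding bases before the stop codon are printed here because the libraries read the 3′ end of transcripts. Capitals mark bases of Eno1 and Eno2 that differ from Eno3, and bases of Eno3 that differ from Eno1, in the mm10 reference.
Eno1 (chr4:150248493-150248552, plus strand): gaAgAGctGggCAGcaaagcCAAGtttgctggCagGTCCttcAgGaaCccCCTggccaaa
Eno3 (chr11:70662370-70662429, plus strand): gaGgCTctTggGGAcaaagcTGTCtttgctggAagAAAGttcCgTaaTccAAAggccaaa
Eno2 (chr6:124761296-124761355, minus strand): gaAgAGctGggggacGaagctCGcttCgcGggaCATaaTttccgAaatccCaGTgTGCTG
In this stretch 22 of 60 bases differed between Eno1 and Eno3, and 22 between Eno2 and Eno3. Of the 471 windows of 30 bases in the last 500 bases of the Eno3 transcript, 0 occurred in Eno1, Eno2 or the Eno1-like gene Eno1b. By contrast 399 of the Eno1 windows, or 84.7%, occurred in Eno1b, to which 16 ntCZC UMIs and 402 tissue UMIs were assigned. Eno1 and Eno1b counts are therefore uncertain against each other. Any reads left uncounted because they match both genes would lower Eno1 and not Eno3, and their number was not measured. Aldoa shared 42 windows with Aldoart1 and 10 with Aldoart2, which held 26 and 28 UMIs in tissue. The tissue counts of these near copies include the 2 libraries with contradictory genotype labels.

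Each transcript molecule is counted once from its 3′ end whatever its length, so levels are compared between isozymes as CPM, the UMIs of a gene scaled to 1000000 UMIs of the library or class. Eno3 was higher in all 10 ntCZC libraries than in any of the 9 tissue libraries, and Fbp1 was counted only in tissue. These 2 of the 9 genes did not overlap between the kinds, and the other 7 did. Among all 10681 genes tested, 0.693% lay above every tissue library in every ntCZC library and 14.4% lay below.

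Eno3 stood at 219.8 and 12.4 CPM in the 2 wt ntCZC libraries. It stood at 139.7, 164, 9.12 and 275 CPM in the 4 het libraries, and at 55.6, 212, 50.2 and 166 CPM in the 4 null libraries. The 2 lowest were ntCZC het 3 and the shallow ntCZC wt 3, in which 2 UMIs carry the value. The wt tissue libraries had 4.64, 5.23, 3.25, 4.25 and 4.08 CPM of Eno3, the het ones 5.99 and 3.27, the null ones 4.43 and 4.5, and PBMC 15.5. The mean was 130.4 ± 93.5 CPM in ntCZC (SD, n = 10) and 4.41 ± 0.867 CPM in tissue (SD, n = 9), so the spread lay in blood. On average 23.7% of ntCZC barcodes and 1.42% of tissue barcodes had an Eno3 UMI, at unequal depth per barcode.

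Fbp1 was at 0 UMIs in the 10 ntCZC libraries and in PBMC. The wt tissue libraries had 403, 207, 111, 49.1 and 91.2 CPM, the het ones 158 and 209.7, and the null ones 143 and 209. Against a floor of 3 UMIs over all ntCZC, or 0.224 CPM, the tissue mean of 176 CPM was at least 784-fold higher.

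The other 7 genes were measured in both kinds, with overlapping ranges. Eno1 averaged 272 ± 94.7 CPM in ntCZC and 87.8 ± 34.5 CPM in tissue, and 9 of the 10 ntCZC libraries lay above the highest tissue library at 164 CPM. Hk2, the hexokinase of muscle, fat and many proliferating cells, averaged 87 ± 45.8 CPM in ntCZC and 33.6 ± 11.4 in tissue, again with 9 of 10 above. The exception was ntCZC wt 3 for both genes, at 43.3 CPM of Eno1 and 6.19 CPM of Hk2. Pkm averaged 321 ± 115 CPM in ntCZC and 181 ± 73.9 in tissue, with 4 of 10 above.

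Hk1, the hexokinase of most tissues, averaged 26.7 ± 10.4 CPM in ntCZC and 19.8 ± 1.98 in tissue. Aldoa averaged 291 ± 108 CPM in ntCZC and 229 ± 67.1 in tissue. Hk3, a hexokinase of myeloid cells, averaged 16.1 ± 9.98 CPM in ntCZC and 8.63 ± 12.7 in tissue, where tissue wt 2 alone reached 42.2 CPM and the other 8 libraries lay between 2.3 and 6.77. Pfkp was nearly level, at 39.5 ± 17.2 CPM in ntCZC and 39.8 ± 9.4 in tissue. In these sums over whole libraries fewer cells of a type and less RNA per cell cannot be told apart.

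**Figure D1:**
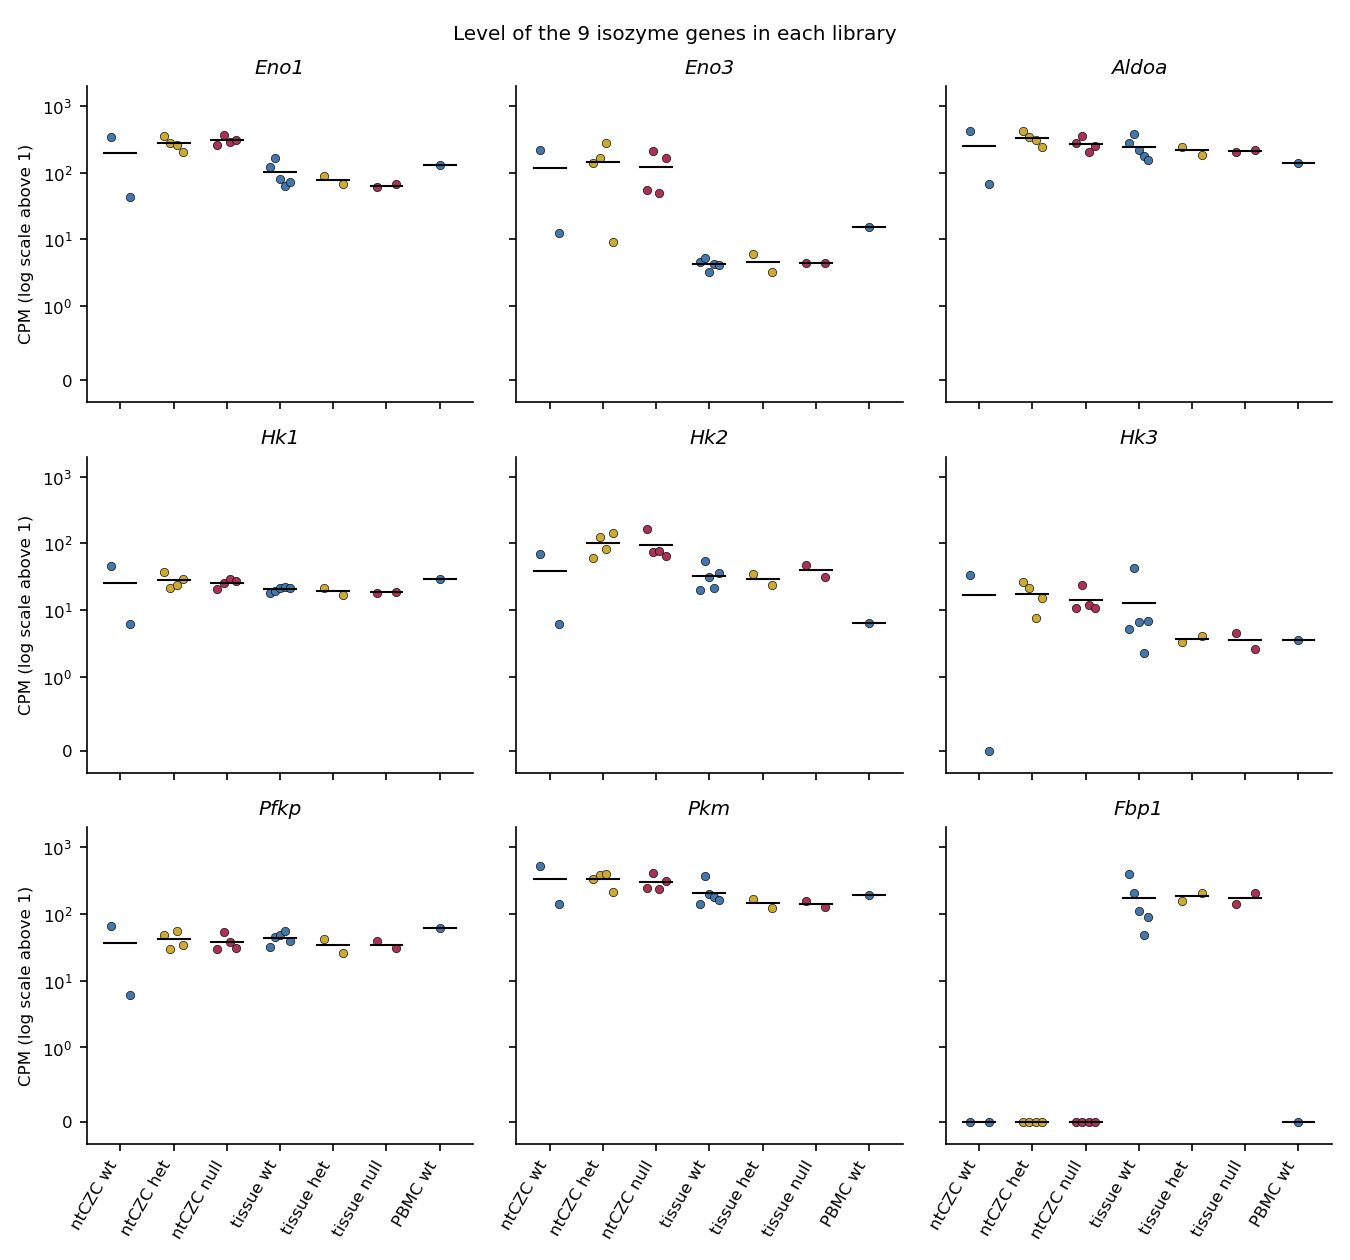
Level of each of the 9 genes in every library, in CPM (log scale above 1), by kind of library and Nalcn genotype. Points are libraries and bars are group means. Eno3 lay at 9.12 CPM or above in ntCZC and at 5.99 CPM or below in tissue, and Fbp1 was at 0 in ntCZC and PBMC.

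In edgeR's quasi-likelihood fit over all genes, the log2 change of ntCZC over tissue was 4.78 (SE 0.40) for Eno3, 1.58 (SE 0.22) for Eno1, 1.27 (SE 0.27) for Hk2 and 1.02 (SE 0.51) for Hk3. It was 0.79 (SE 0.18) for Pkm, 0.39 (SE 0.14) for Hk1, 0.31 (SE 0.15) for Aldoa and −0.03 (SE 0.17) for Pfkp, whose sign turned in 5 of 25 alternative fits. No p is given, since these genes were picked from this contrast, in which 64.5% of all genes passed the 5% false discovery rate. Without tissue null 3 the change was 4.81 for Eno3 and 1.51 for Eno1, and without ntCZC wt 3 it was 4.86 for Eno3 and 1.68 for Eno1. Hk3 stood at 1.80 without tissue wt 2.

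Eno3 UMIs in blood were concentrated in a single gated class. Nonclassical monocytes are the CX3CR1-high, Ly6C-low monocytes that patrol the vessel wall. A barcode showing 200 genes or more, and no more than 25% of its UMIs from mitochondria, was assigned to the class with most markers detected, if these were at least 3. That class had to lead every class of another lineage by at least 2 markers and every class of its own lineage, such as classical against nonclassical monocytes, by at least 1. Barcodes with over 20% of their UMIs from haemoglobin genes were all assigned as red cell-like instead. Eno3 was not among the markers. The 979 nonclassical monocyte-like barcodes of ntCZC held 2107 of the 2185 Eno3 UMIs, or 96.4%, against 33.7% of all UMIs. For the other genes the class held 42.9% of Eno1, 42.1% of Pkm, 44.1% of Pfkp, 35.9% of Aldoa, 33.7% of Hk2, 26.4% of Hk3 and 25.1% of Hk1 UMIs.

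In tissue the class held 15.8% of Eno3 UMIs (345 UMIs, 920 barcodes) and 0.617% of all UMIs. Ungated barcodes held 31.2% of tissue Eno3 UMIs and 20.8% of all UMIs, and low-quality barcodes 23.9% and 42.8%. In the tissue gate 7 of 8 gate markers and 3 of 3 further markers were at least 2-fold higher than in the other barcodes. Its 10 genes with the largest fold were Adgre4, Cd300e, Pate4, Treml4, S1pr5, Scgb3a1, Eno3, Gm27187, Ly6i and Spn, of which Scgb3a1 is known from airway epithelium.

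Across the 10 ntCZC libraries the Eno3 level followed the share of UMIs in nonclassical monocyte-like barcodes, which ran from 0% to 60.2%. Pearson's r was 0.97 and Spearman's rho 0.92, and r was 0.96 without ntCZC wt 3 and het 4, the libraries farthest from the median share. No p is given, since Eno3 was picked for its level in this class and most of its UMIs lay there.

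**Figure D2:**
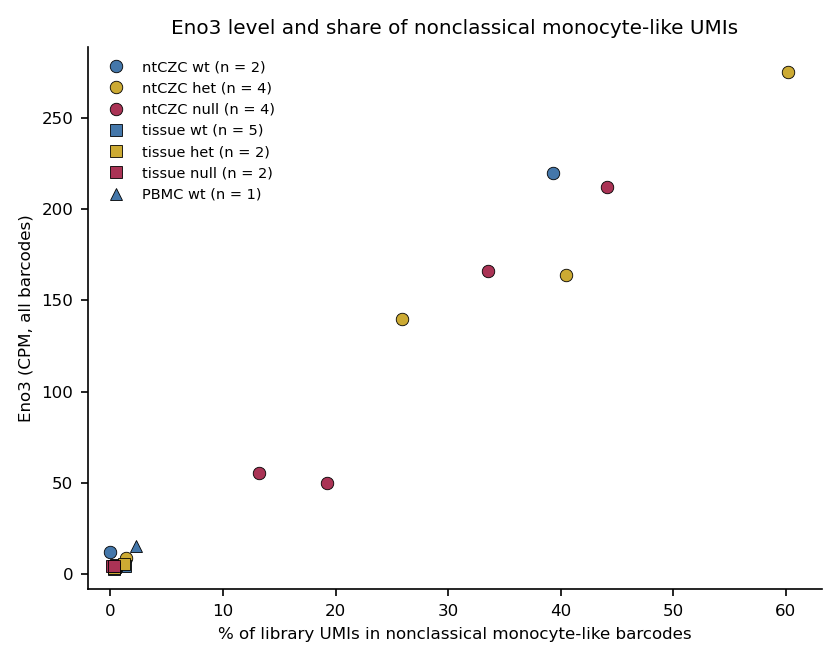
Eno3 level of each library in CPM against the percent of its UMIs in nonclassical monocyte-like barcodes, for ntCZC, tissue and PBMC. Each point is a library. The tissue libraries sit at shares of 0.158% to 1.29% and the ntCZC libraries spread from 0% to 60.2%.

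Within the class itself Eno3 also lay higher in ntCZC. Among libraries with at least 20 such barcodes Eno3 stood at 540.1 CPM in ntCZC wt 1, at 463, 399 and 450.1 in het 1, 2 and 4, and at 406, 464 and 487 in null 1, 2 and 4. In tissue wt 1 to 4 had 109, 116, 90 and 103 CPM, het 1 and 2 had 163 and 59.9, and null 2 and 3 had 86 and 127, the first of which rests on 3 UMIs. The groups did not overlap, and the lowest ntCZC value was 399 CPM against a highest tissue value of 163.

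The mean was 458 ± 48.1 CPM in ntCZC (SD, n = 7) and 107 ± 30.7 CPM in tissue (SD, n = 8). The PBMC library, which was not sorted for the reporter and came from a younger mouse, stood at 463 CPM (95% exact Poisson interval 259 to 764, from 15 UMIs in 17 barcodes). Poisson and binomial intervals here cover counting error only.

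Eno1 averaged 387 ± 49.8 CPM in nonclassical monocyte-like barcodes of ntCZC and 172 ± 52.9 in those of tissue, with ranges of 315 to 455 and 57.3 to 236. Hk2 averaged 93 ± 17.6 CPM and 37.5 ± 22.5, with ranges of 66.2 to 119.7 and 0 to 59.6. Neither overlapped. Aldoa averaged 349.9 ± 71.6 and 207 ± 53.2 CPM, and Pkm 434 ± 33.6 and 272 ± 92.8, both with overlap. Pfkp leaned the other way, at 55.3 ± 10.1 CPM in ntCZC and 68.8 ± 6.76 in tissue. Hk1 averaged 19 ± 9.25 and 15.4 ± 8.51 CPM, and Hk3 14.6 ± 8.31 and 16.6 ± 21.5.

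The log2 changes in the edgeR fit were 1.79 (SE 0.15) for Eno3, 0.83 (SE 0.15) for Eno1, 0.71 (SE 0.21) for Hk2, 0.46 (SE 0.16) for Aldoa, 0.37 (SE 0.16) for Pkm and −0.51 (SE 0.15) for Pfkp. They are a description, since the class levels entered the choice of genes, and 38.2% of all 3537 genes tested in the class were called. Of those genes 9.30% lay above every tissue library in every ntCZC library and 3.45% below. Without tissue null 3 the change of Eno3 was 1.82.

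Fbp1 was at 0 in the class in ntCZC and at 51.5 ± 32.9 CPM in tissue, with a range of 9.98 to 115. Of 29 marker lists of other classes, 24 had a higher median in these barcodes of tissue than of ntCZC and 5 a higher one in ntCZC. In tissue the 8 summed proximal tubule markers stood at 149.7 to 679 CPM in these barcodes and the 8 hepatocyte markers at 48.2 to 659. In ntCZC the proximal tubule sum was 0 to 1.35 CPM with 7 of 8 markers at 0, and the hepatocyte sum was 0 with 8 of 8 at 0. The 5 club cell markers stood at 119.8 to 37275 CPM in tissue, with a median of 756, and at 0 in ntCZC. Classical monocyte markers stood at 439 to 2293 CPM in tissue (median 983) and 185 to 469 in ntCZC (median 406). Neutrophil markers stood at 28.7 to 1217 CPM in tissue (median 402) and 62.7 to 641 in ntCZC (median 85.3). The lists higher in ntCZC were alveolar type 2 (964 to 1245 CPM against 258 to 728, with 5 of 7 markers at 0 in ntCZC), ciliated, macrophage, large peritoneal macrophage and plasma cell. Their part in the tissue levels of Fbp1, and of other genes in the class, was not tested. Depth also differed, with median UMIs per nonclassical monocyte-like barcode of 3149 to 5574 in ntCZC libraries and 1094 to 3739 in tissue libraries.

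Barcodes were therefore thinned to 1000 UMIs each before the share with an Eno3 UMI was compared. It was 34.9% in ntCZC (exact binomial 95% interval 31.8 to 38, 955 barcodes, 24 shallower ones left out). In tissue it was 12.4% (10.3 to 14.8, 869 barcodes, 51 left out), and in PBMC 35.7% (12.8 to 64.9, 14 barcodes). In B cell-like barcodes, which gave the background, it was 0.388% in ntCZC and 0.358% in tissue. Classical monocyte-like barcodes stood at 0.465% in ntCZC and 0.295% in tissue, near that background. Without thinning the shares in the nonclassical class were 70.3%, 26.6% and 47.1% at median depths of 4289, 2420 and 2144 UMIs, and those of B cell-like barcodes 4.18%, 0.833% and 0.42% at 3204, 1580 and 1640 UMIs. The B cell-like background was uneven in ntCZC. In ntCZC het 1, 4 of 29 such barcodes held 17 Eno3 UMIs (73.6 CPM), and pooled over ntCZC Eno3 made up 7.1% of enolase UMIs in that class.

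**Figure D3:**
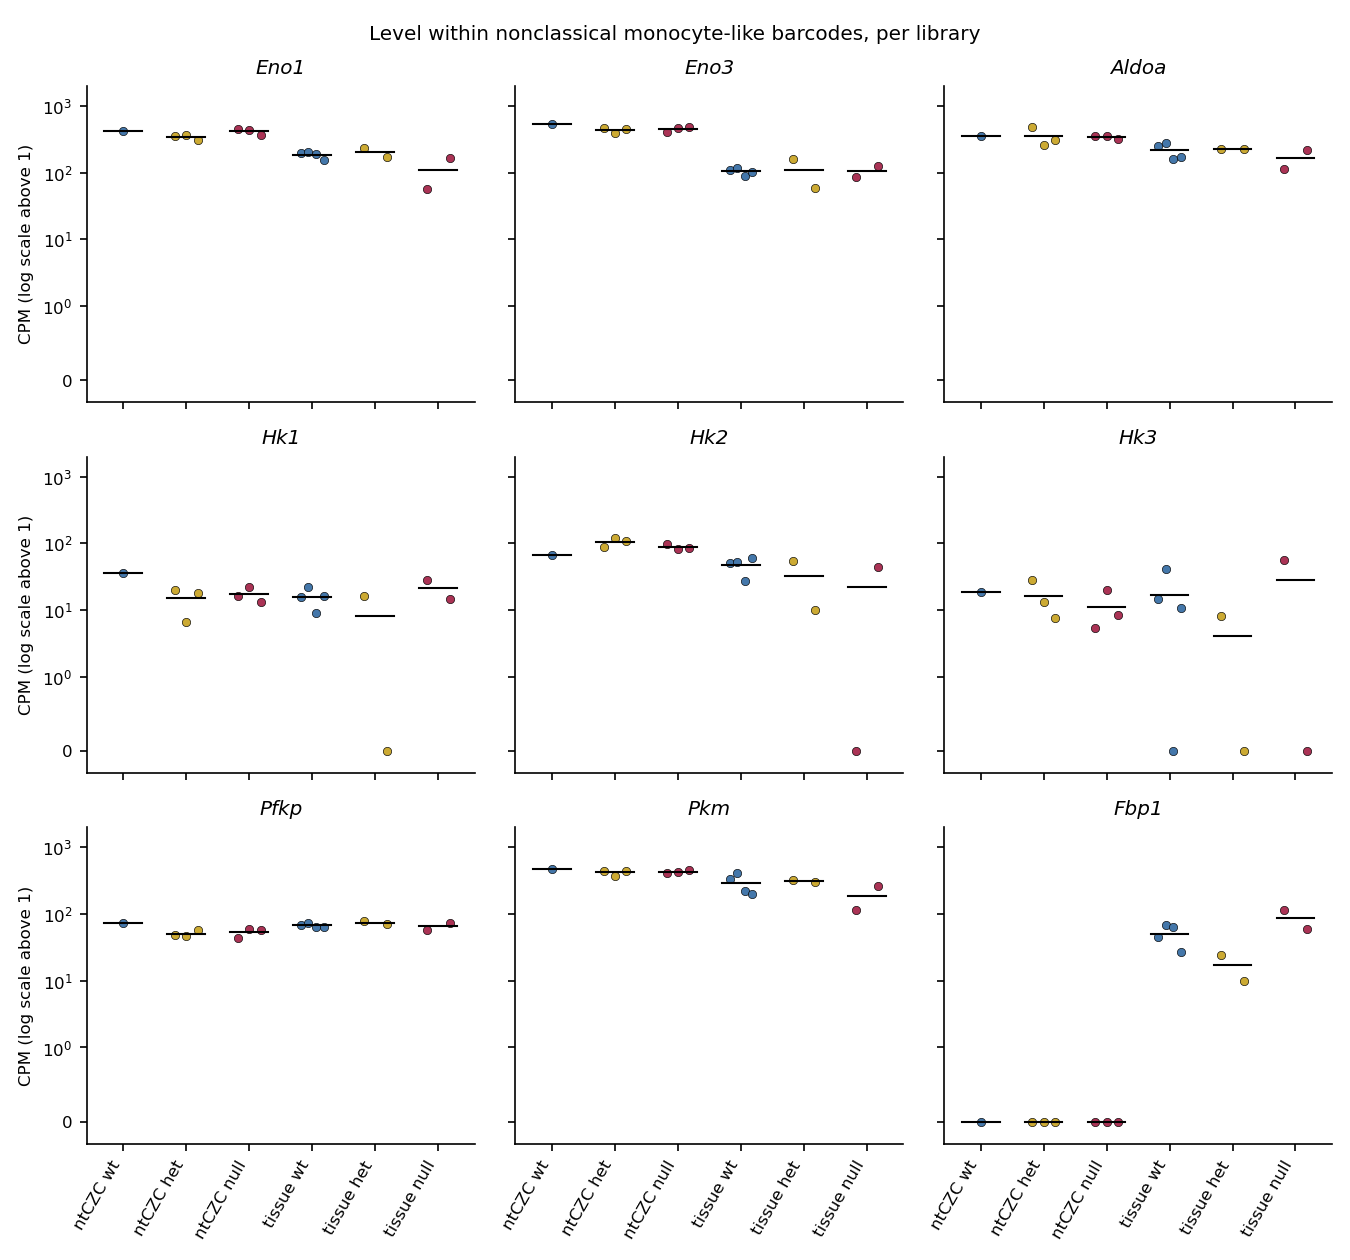
Level of each gene in CPM within nonclassical monocyte-like barcodes, by kind and genotype. Each point is a library with at least 20 such barcodes and bars are group means. Eno3, Eno1 and Hk2 lay higher in all 7 ntCZC libraries than in the 8 tissue libraries, and Fbp1 was at 0 in ntCZC.

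The 24 gated classes of tissue differed in which isozymes they held, and levels are means over libraries. Eno3 was highest in nonclassical monocyte-like barcodes at 107 CPM, and no library of the next class, dendritic cell-like at 20.8 ± 24.8 CPM, reached the range of the first. The order below that does not separate, with smooth muscle or pericyte-like barcodes at 8.85 CPM, neutrophil-like at 7.99 and epididymal-like at 6.24.

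Fbp1 was highest in proximal tubule-like barcodes at 804 ± 233 CPM and in hepatocyte-like barcodes at 596 ± 213 CPM, whose ranges overlapped. Neutrophil-like barcodes came next at 78.9 ± 51.3 CPM, below every hepatocyte-like value. Those of blood had 0 Fbp1 UMIs, in 103 barcodes of ntCZC wt 1 and 37 of PBMC. The hepatocyte gate held 175 barcodes and none of its own markers were among its 10 leading genes, which included the liver genes Hamp, Bhmt and Apoa2, while 8 of 8 gate markers and the 1 further marker were at least 2-fold higher than in the other barcodes. Low-quality barcodes held 73.2% of all tissue Fbp1 UMIs and 42.8% of all UMIs.

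Hk3 stood at 43.4 ± 14.5 CPM in neutrophil-like and 40.7 ± 29.3 CPM in macrophage-like barcodes, which overlapped, and then at 21.3 in dendritic cell-like and 20.1 in classical monocyte-like barcodes. Tissue wt 2 had 113 CPM of Hk3 in its 1698 macrophage-like barcodes, and the other libraries 10.6 to 45.8.

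Hk2 was highest in fibroblast-like barcodes at 218 ± 109.7 CPM, followed by epididymal-like at 129 ± 31.1, squamous-like at 97.6 and macrophage-like at 94.4. Hk1 led in loop of Henle or distal tubule-like barcodes at 189.9 ± 81.8 CPM (n = 4), apart from the next class, squamous-like at 54.8. Its lowest library had 71.6 CPM, however, and hepatocyte-like barcodes reached 89.7. The same kidney class led for Aldoa, at 847 ± 232 CPM with no overlap with the next class, alveolar macrophage-like at 489.7. Its lowest library had 628 CPM of Aldoa, and macrophage-like barcodes reached 713. The kidney class also led for Eno1 at 246 ± 139.9 CPM and for Pkm at 705 ± 279. For Eno1 and Pkm even the ranges of the classes next in rank overlapped its own. The kidney class was thus not set apart from all others for any of these genes. Eno1 stood at 223 CPM both in classical monocyte-like and in proximal tubule-like barcodes, and Pkm at 489.8 in classical monocyte-like ones. Pfkp was highest in dendritic cell-like barcodes at 147 ± 38.1 CPM, with NK cell-like at 135, alveolar type 1-like at 119.6 and T cell-like at 111. For both Hk2 and Pfkp the ranges of neighbouring classes among these overlapped.

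**Figure D4:**
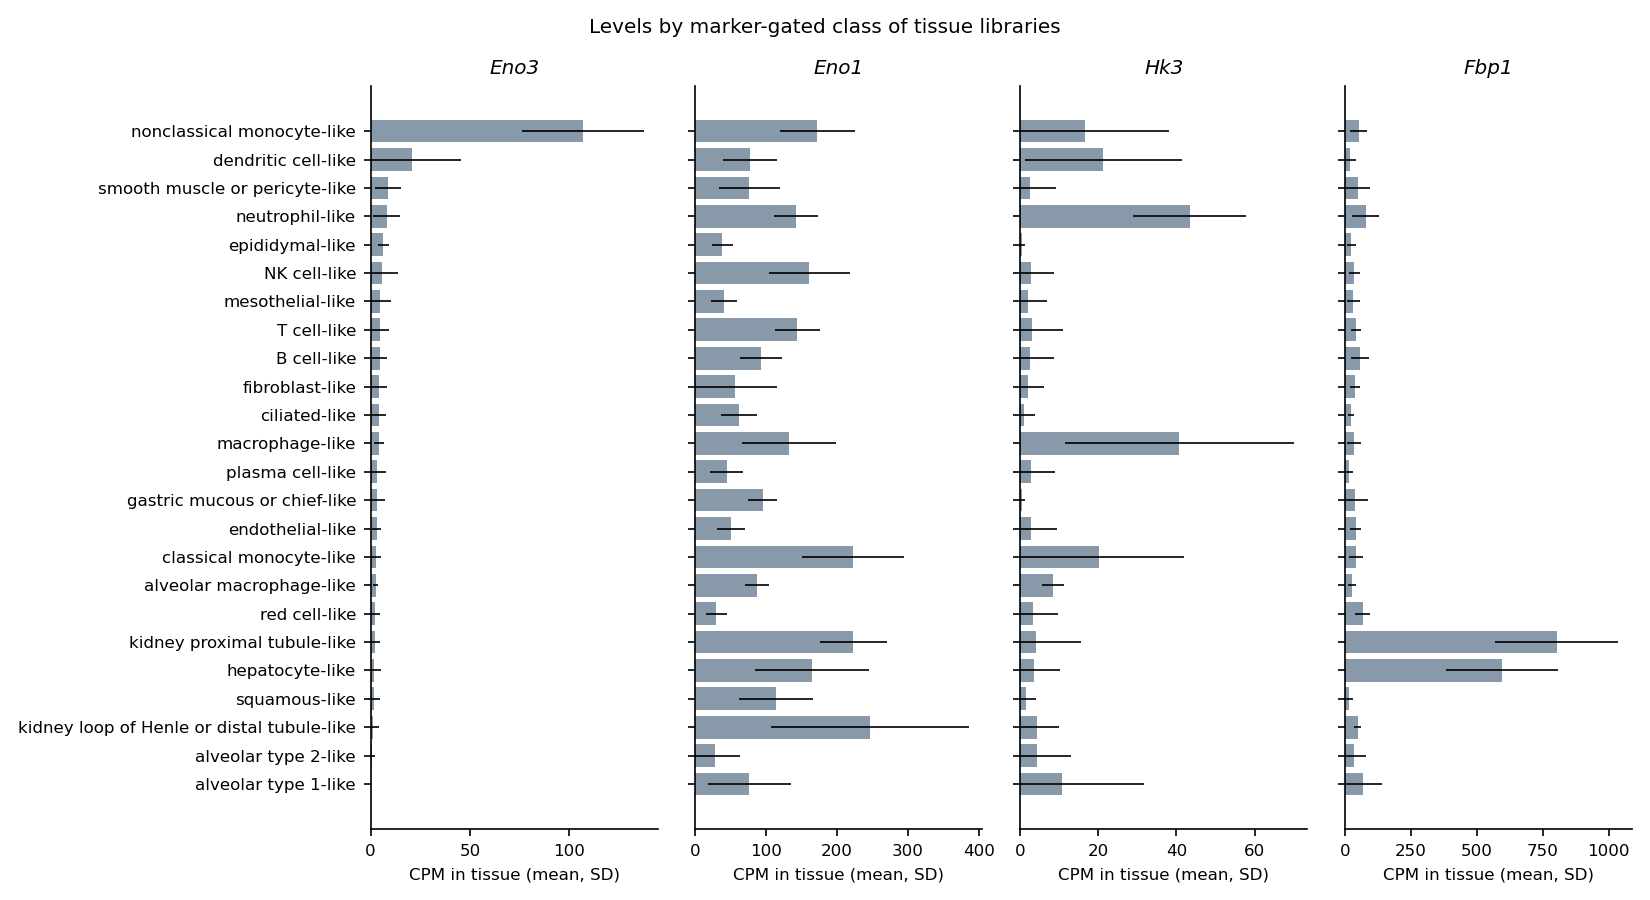
Mean level (CPM, with the SD over libraries) of Eno3, Eno1, Hk3 and Fbp1 in the gated cell classes of tissue. Eno3 stood at 107 CPM in nonclassical monocyte-like barcodes and at 20.8 CPM in the next class, and Fbp1 at 804 and 596 CPM in proximal tubule-like and hepatocyte-like barcodes.

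Over the 24 classes, the genes whose log2 levels correlated most with each named gene were taken from genes at or above 10 CPM in at least 1 class. For Eno3 they were Il31ra (r = 0.750), Map3k14 (0.732), Gm27187 (0.730), Cd300e (0.711) and Treml4 (0.702), the last pair being gate markers of the nonclassical class. For Hk3 they were Wfdc17 (0.892), Gm34084 (0.888), Ptafr (0.876), Cd300c2 (0.869) and Csf2rb (0.868). For Fbp1 they included Glyat (0.981), Pck1 (0.971) and Cyp4a14 (0.946). The classes come from the same libraries and the r values are descriptions.

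Isozyme choice was described as each gene's share of the UMIs of its enzyme. At the hexokinase step, over the UMIs of Hk1, Hk2 and Hk3, Hk2 made up 64.1 ± 12.7% in ntCZC libraries, Hk1 24.3 ± 11.3% and Hk3 11.6 ± 7.26%. The shallow ntCZC wt 3 entered these means with 2 UMIs, 1 of Hk1 and 1 of Hk2. Its Hk1 share was thus 50%, against 10.4% to 30.4% in the other ntCZC libraries. In tissue Hk2 made up 54.2 ± 7.15%, Hk1 34.5 ± 8.93% and Hk3 11.2 ± 9.87%, and in PBMC the order was turned, with Hk1 at 75%, Hk2 at 16.1% and Hk3 at 8.93%. Pooled over ntCZC, nonclassical monocyte-like barcodes used Hk2 for 72.5% of hexokinase UMIs, with a mean over libraries of 73.4 ± 11.6% (n = 7, from 54.4% to 85.7%).

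T cell-like barcodes of ntCZC had Hk1 alone (44 UMIs) and B cell-like ones 71.9% Hk1, while Hk3 held 56.1% in neutrophil-like barcodes (41 UMIs). The neutrophil-like value is in effect that of ntCZC wt 1, the only ntCZC library with at least 20 such barcodes, where Hk1 had 7, Hk2 11 and Hk3 21 UMIs. In tissue Hk1 led in endothelial-like barcodes at 76.3%, Hk2 in fibroblast-like at 90% and epididymal-like at 93.1%, and Hk3 in neutrophil-like at 47.8%.

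At the phosphofructokinase step Pfkl, the liver type, made up 54.5 ± 13.8% and Pfkp 43.8 ± 13.6% in ntCZC. In tissue Pfkp made up 57.2 ± 4.88%, Pfkl 35.5 ± 2.93% and Pfkm, the muscle type, 7.21 ± 2.8%. Within ntCZC nonclassical monocyte-like barcodes used Pfkp for 59% of UMIs, while B cell-like barcodes used Pfkl for 72%. In tissue Pfkp held 87.5% in dendritic cell-like, 77.7% in T cell-like and 71.3% in nonclassical monocyte-like barcodes, and Pfkl held 77.8% in ciliated-like ones.

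The reverse step belonged to Fbp1 for 95.9 ± 1.64% of fructose bisphosphatase UMIs in tissue. The exception was gastric mucous or chief-like barcodes, in which Fbp2 held 183 of 245 UMIs, or 74.7%. Fbp2 also held 38.8% of the pooled UMIs in ciliated-like barcodes, with a mean over libraries of 32.3 ± 21.3% (n = 8). In squamous-like barcodes it held 9 of 19 UMIs, or 47.4%. Its mean over libraries there was 22.5 ± 45% (n = 4), with a median of 0% and a highest value of 90%.

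Eno3 made up 28.6 ± 13.9% of enolase UMIs in ntCZC libraries, from 4.22% in het 3 to 51.2% in het 4, and 5.04 ± 1.34% in tissue. Pooled over nonclassical monocyte-like barcodes it made up 55.4% in ntCZC (exact binomial 95% interval 53.8 to 57), 37.5% in tissue (34.4 to 40.8) and 68.2% in PBMC (45.1 to 86.1). Single ntCZC libraries with at least 20 such barcodes lay between 47.2% and 58.8%, and single tissue libraries between 26.1% and 60%. The 60% rests on 3 of 5 UMIs in tissue null 2, and ntCZC null 3, with 8 such barcodes, stood at 35.4% (17 of 48 UMIs). In classical monocyte-like barcodes Eno3 held 2.74% in ntCZC and 1.07% in tissue. Within 1 monocyte class of blood, then, most of the enolase UMIs counted were Eno3, and in the other nearly all were Eno1. Since 84.7% of the Eno1 windows occurred in Eno1b, Eno1 may be undercounted against Eno3, which would raise these Eno3 shares. The size of such a loss was not measured.

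Pyruvate kinase UMIs were Pkm throughout ntCZC and for 97.6 ± 1.44% in tissue. Pklr, the liver and red cell type, held 19 of 60 UMIs, or 31.7%, in hepatocyte-like barcodes, with a mean over libraries of 30.7 ± 28.7% (n = 4, from 0% to 69.2%). In proximal tubule-like barcodes it held 8.86% of the pooled UMIs (180 UMIs), while its mean over libraries was 27.6 ± 20.2% (n = 8, from 3.62% to 69%). In ciliated-like barcodes it held 12.9% of the pooled UMIs (89 UMIs) and 16.5 ± 11.1% over libraries (n = 8, from 4% to 33.3%). The order of the proximal tubule-like and ciliated-like classes was thus opposite in the pooled UMIs and in the library means. Tissue wt 2 gave 1519 of the Pkm UMIs of the proximal tubule-like pool, at 258 CPM against 19.3 to 81.2 in the other libraries with at least 20 such barcodes.

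**Figure D5:**
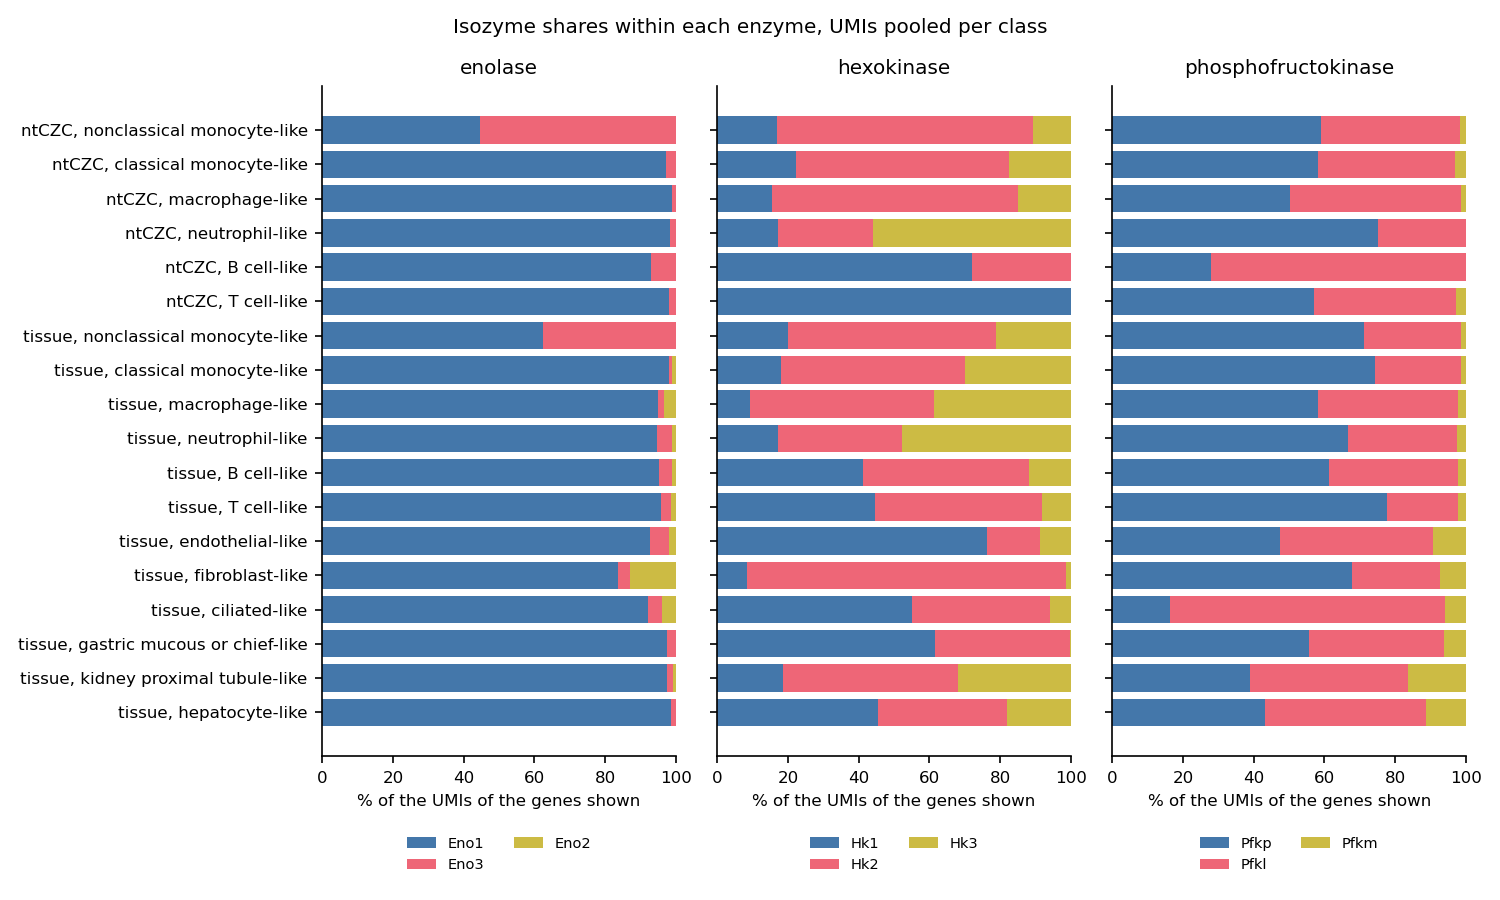
Percent of UMIs of each enzyme held by each isozyme gene, pooled within gated classes of ntCZC and of tissue, for enolase, hexokinase (Hk1, Hk2 and Hk3) and phosphofructokinase. Eno3 held 55.4% of enolase UMIs in nonclassical monocyte-like barcodes of ntCZC and 37.5% in those of tissue.

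Of the 36 other glycolytic and gluconeogenic genes, 24 could be tested between ntCZC and tissue and 16 passed, 5 higher and 11 lower, where 28.5% of all genes were called higher and 36.0% lower. Of the 11, 3 also passed the low-count filter within ntCZC alone (G6pc3, Ldhb and Pfkfb3), while the others entered the fit through tissue, so the 11 cannot be read against the 36.0%. Among the 16 of these genes that passed the filter in each kind alone, 5 were higher and 3 lower, where 33.7% of all 9023 such genes were higher and 25.2% lower. That restriction removes genes that were low in 1 kind. Without tissue null 3 the counts over all 24 were again 5 and 11. The genes called higher were Bpgm, which makes the 2,3-bisphosphoglycerate of red cells, Pfkfb4, Pfkl, Gapdh and Gpi1, with log2 changes of 4.02, 1.5, 0.84, 0.82 and 0.80. Bpgm ran from 8.08 to 916 CPM over ntCZC libraries whose haemoglobin share ran from 0.333% to 73.5%, and the part of red cells in it was not tested.

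Pck1, the phosphoenolpyruvate carboxykinase of gluconeogenesis, was lower, averaging 0.171 CPM in ntCZC and 337 in tissue, with ranges of 0 to 1.71 and 140.3 to 671. Pcx, pyruvate carboxylase, averaged 0.782 and 35.7 CPM, with ranges of 0 to 2.95 and 15.8 to 84. G6pc, glucose-6-phosphatase, and Slc2a2, the liver glucose transporter, were at 0 in ntCZC and at least 429-fold and 190.1-fold higher in tissue. Ldhb, a lactate dehydrogenase subunit, averaged 18.8 and 191 CPM (adjusted p = 4.02e-09), and Slc16a1, a lactate transporter, 3.55 and 21.5 CPM. Pck2, the mitochondrial carboxykinase, ran from 0 to 26.3 CPM in ntCZC and from 8.17 to 14.7 in tissue, and did not pass (adjusted p = 0.226). G6pc3, the widely expressed glucose-6-phosphatase, passed as lower (adjusted p = 0.0188), although its ranges of 5.91 to 21.1 CPM in ntCZC and 7.82 to 21.9 in tissue overlapped. Genes at or near 0 in ntCZC entered the fit through their tissue counts alone, so that they were called follows from the filter. Pfkfb4, a regulator of phosphofructokinase, averaged 27.3 and 9.23 CPM (adjusted p = 3.06e-06).

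Within nonclassical monocyte-like barcodes 9 of the 36 could be tested and 4 passed, 2 higher and 2 lower, where 18.5% of all genes were called higher and 19.7% lower. Gapdh was higher in ntCZC by 0.37 (adjusted p = 0.0188) and Pgam1, the mutase before enolase, by 0.60 (adjusted p = 0.0177) on the log2 scale. Slc16a3, the lactate exporter of glycolytic cells, was lower with a log2 change of −0.68 (adjusted p = 0.00729). With a replicate block the adjusted p was 0.0275 for Pgam1, 0.0843 for Gapdh and 0.0685 for Slc16a3, and with a gate of at least 4 markers it was 0.0417, 0.0513 and 0.00268. The count was 2 in each of these fits, 8 without ntCZC het 2 and 7 without ntCZC null 1.

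The design also asks whether these genes differed between the Nalcn genotypes, a question that the choice of genes did not use. In tissue and its gated classes the groups may include cells without the deletion. With the low-count filter, no member passed the 5% false discovery rate in any genotype comparison in edgeR, whether over whole ntCZC libraries, whole tissue libraries, nonclassical monocyte-like barcodes or proximal tubule-like barcodes. The share of all genes called was 0% for ntCZC null against wt, 0.107% for het against wt and 0% for null against het. It was 0.0112% for tissue null against wt and 0% for tissue het against wt. Of 9379 genes tested in ntCZC, 360 had an unadjusted p under 0.05 for null against wt and 686 for null against het. Of 17861 tested in tissue, 1366 did for het against wt. DESeq2 called 12, 13 and 73 in these comparisons. It called more for ntCZC het against wt and tissue null against wt, as counted in the closing section on processing.

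In whole ntCZC libraries Eno3 differed between null and wt by a log2 change of 1.84 (SE 1.06, adjusted p = 0.983), between het and wt by 0.16 (SE 0.74, adjusted p = 1) and between null and het by 1.68 (SE 0.88, adjusted p = 0.744). Group means were 116, 147 and 121 CPM in wt, het and null, and the fit adjusts for sex, which 3 of the 4 null libraries and 1 het library carry as female. Over the alternative fits the null to wt change of Eno3 ran from −0.46 to 4.00 and the het to wt change from −0.81 to 1.94. Without the sex term the null to het change of Eno3 was 0.04, without ntCZC het 3 it was 0.15 and without ntCZC null 2 it was 3.57. Eno1 differed between null and wt by 0.80 (SE 0.39, adjusted p = 0.983), and by 0.45 to 1.51 over the alternative fits.

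Eno3's share of enolase UMIs averaged 30.2 ± 19.7% in het and 26 ± 11.2% in null ntCZC. The difference of −4.22 percentage points was within the spread (exact two-sided permutation p = 0.686, where the smallest possible is 0.0286), and it was 2.78 without ntCZC het 4. Within nonclassical monocyte-like barcodes, null differed from het by a log2 change of 0.06 for Eno3 (SE 0.17, adjusted p = 1), 0.30 for Eno1 (SE 0.18, adjusted p = 1) and −0.27 for Hk2 (SE 0.22, adjusted p = 1). In that fit 106 of 5106 genes had an unadjusted p under 0.05, and neither edgeR nor DESeq2 called a gene.

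In tissue, null stood below wt by log2 changes of −0.77 for Eno1 (SE 0.33, adjusted p = 0.551), −0.75 for Pkm (SE 0.34, adjusted p = 0.574) and −1.66 for Hk3 (SE 0.97, adjusted p = 0.652). Without tissue null 3 these were −1.18, −0.74 and −2.14, and without tissue wt 2 Hk3 was −0.85 and Pkm −0.52. Fbp1 differed by 0.21 (SE 0.68, adjusted p = 0.95). Over the alternative fits its change ran from −0.93, without tissue null 3, to 1.20. Eno3 differed by −0.17 (SE 0.28, adjusted p = 0.874), and by −0.15 without tissue null 3. The het to wt change was −2.23 for Hk3 (SE 1.00, adjusted p = 0.648) and −0.84 without tissue wt 2.

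In proximal tubule-like barcodes, the class with most Fbp1, wt 1 to 4 had 781, 508, 727 and 594 CPM of the gene, het 1 and 2 had 1207 and 991, and null 2 and 3 had 663 and 959.8. The 2 het libraries lay above the 4 wt libraries, as they did for 10.8% of the 8065 genes tested there, with a log2 change of 0.79 (SE 0.24, adjusted p = 0.328). The null change was 0.29 (SE 0.26, adjusted p = 0.981), and −0.01 without tissue null 3. Pkm differed between het and wt by −2.76 (SE 0.76, adjusted p = 0.328), a call that DESeq2 made (adjusted p = 0.00638), as did edgeR without the low-count filter (adjusted p = 6.94e-07), and the change stood at −1.63 without tissue wt 2, the library with 258 CPM of Pkm where the other wt libraries had 59.4 to 81.2. Without the filter Hk2 (adjusted p = 0.0211) and Hk3 (adjusted p = 0.0135) were called lower in het too, where 1.93% of 18837 genes were. Tissue wt 2 gave 244 Hk2 and 192 Hk3 UMIs, against 38 and 1 in wt 1, while the het libraries had 1 and 3 Hk2 UMIs and 0 Hk3 UMIs.

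The difference between the 2 null to wt effects, in ntCZC and in tissue, was tested as an interaction in edgeR over 12954 genes. For Eno1 it was 1.69 on the log2 scale (adjusted p = 0.793) and for Eno3 0.58. Without tissue null 3, a fit added after the data were seen, these were 2.06 (adjusted p = 1) and 1.25.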

How the data were processed

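The deposited values were raw UMI counts per gene and barcode, in filtered matrices that the authors made with Cell Ranger against mm10. The submitters' processing notes name version 2.1.1 and Seurat, while the matrix headers carry 3.0.2. Hashtag counts were not used here, and a few genes of the pathway and likeness lists are not reported here. Counts were summed per library, or per library and gated class, and the members, marker gates and pathway list were chosen with earlier results of these data known. A barcode entered a class with at least 3 of its markers and a lead of 2 over classes of other lineages and of 1 over classes of its own lineage. The red cell-like class instead took every barcode with over 20% of its UMIs from haemoglobin genes, whatever its markers or quality. No doublet caller was run. A barcode without the required lead stayed ungated, but a gated barcode could still hold some markers of another lineage. Sums over whole libraries kept every barcode. Class sums needed at least 20 barcodes.

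Sums were fitted with edgeR 4.0.16 (quasi-likelihood, TMM scaling, Benjamini-Hochberg adjustment over all genes tested), with sex as a covariate except for null against het within nonclassical monocyte-like barcodes. Sex was taken as labelled. The null tissue library with Y-linked and epididymal transcripts therefore counted as female in the sex term of the tissue fits. Changes between het and wt in tissue are given only with that library in the fit. DESeq2 1.42.0, other scaling, no low-count filter, a barcode filter (at least 200 genes, at most 25% mitochondrial UMIs), a stricter gate and leaving out each library were alternatives. Permutation tests used scipy 1.17.1. Named genes were the 9 members and their near copies, the 8 pathway genes with the smallest adjusted p, other isozymes of the member enzymes, and the 5 genes most like Eno3, Hk3 and Fbp1 by Pearson's r of log2(CPM + 1). Bpgm, Gapdh, Gpi1, Pgam1 and Slc16a3 were named after their values were seen, as members of short counts, Pck2 and G6pc3 for their overlapping ranges and Pfkfb3 as passing the filter within ntCZC. The 25 pairs of replicates all differed beyond sampling noise. Self-tests ran on simulated data. Sequences and positions came from the mm10 reference annotation.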

Additional observations from a re-analysis of the deposited data

Results flagged for a closer look

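In 46 groups of 4 or 5 libraries, 6 held a library far from the others, where chance gives about 1 in 20 groups. Tissue wt 2 accounted for 4 of them. Its Hk3 level was 42.2 CPM against 2.3 to 6.77 in the other wt tissue libraries, and its Pkm level 367 CPM against 143 to 202. Within proximal tubule-like barcodes the same library had 32.6 CPM of Hk3 against 0 to 0.274, and 258 CPM of Pkm against 59.4 to 81.2. Its macrophage-like barcodes held 11.9% of its UMIs, and their part in these values was not tested.

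In blood, ntCZC null 1 had 167 CPM of Hk2, where the other null libraries had 64.6 to 76.8. ntCZC null 2, the male null library, had 23.5 CPM of Hk3, where the others had 10.6 to 11.8.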

How the results depend on the processing

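Of the log2 changes under the alternatives, 1213 kept their side of the threshold, 2 passed it newly and 2 moved beyond the spread. The number of genes called moved by over 1.5 times as follows. For ntCZC against tissue it was 6891, and 10699 without a low-count filter. RLE scaling turned the split from 3042 higher and 3849 lower to 2202 and 4736, and the median log2 change of all genes from −0.08 to −0.3. For ntCZC null against wt it was 0, 12 with DESeq2, 4 without the filter and 0 to 64 leaving out a library (64 without wt 1). For ntCZC het against wt it was 10, 5 with RLE scaling, 101 with DESeq2, 92 without the filter, 3 without the sex covariate and 2 to 96 leaving out a library (96 without wt 1, 48 without het 4). For ntCZC null against het it was 0, 13 with DESeq2, 60 without the filter and 0 to 25 leaving out a library (25 without het 4). For tissue null against wt it was 2, 345 with DESeq2, 17 without the filter, 0 with the barcode filter and 0 to 16 leaving out a library (16 without wt 1). For tissue het against wt DESeq2 gave 73 in place of 0. Within nonclassical monocyte-like barcodes ntCZC against tissue gave 1352, and 4579 without the filter. Its pathway count was 4, 15 without the filter, 2 with the stricter gate and 3 to 8 leaving out a library. Null against het in that class gave 0, 7 without the filter and 0 to 3 leaving out a library. In proximal tubule-like barcodes null against wt gave 0, 1 with DESeq2, 35 without the filter and 0 to 4 leaving out a library, and het against wt 0, 55 with DESeq2 and 408 without the filter, with Pkm, and with Pkm, Hk2 and Hk3, among them. The Eno3 share of enolase UMIs, null minus het, was −4.22, and −12.9 to 2.78 leaving out a library. Thinning to 500 UMIs gave 21.8% of Eno3-positive nonclassical monocyte-like barcodes in ntCZC, 5.11% in tissue and 11.8% in PBMC (2 of 17 barcodes, exact binomial 95% interval 1.46 to 36.4).

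Deviations of same-numbered ntCZC and tissue libraries from their group means correlated at r = −0.02 to 0.12. This cannot tell whether they came from the same mice, since the kinds hold different cells. Sex and age matched exactly for wt 1 (571 days), wt 3 (608), het 2 (551) and null 2 (552). Null 3 was 612 and 611 days old, and het 1 was 610 and 551. The main fits treat libraries as unpaired. With the number as a replicate block, the calls were 5296 for ntCZC against tissue, 661 within nonclassical monocyte-like barcodes (2 of the pathway), 4 for ntCZC het against wt and 0 for tissue null against wt. Hk3 stood at 2.26 between ntCZC and tissue with the block, and the block gave p = 0.5 for the Eno3 share (exact permutation, smallest possible 0.125). The cause of these changes was not tested, except that more genes are tested without the filter. DESeq2 put Fbp1 at a log2 change of −9.97 between ntCZC and tissue, and any fitted value against a group at 0 depends on the prior count. Depth limits the values of ntCZC wt 3 most, where 2 UMIs stand behind Eno3.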

Other observations

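The 2 tissue libraries with contradictory genotype labels entered no comparison. Eno3 stood at 4.38 and 6.27 CPM in them, Eno1 at 73.5 and 75.3, Aldoa at 195 and 261, Pkm at 129 and 200.3, and Fbp1 at 161 and 103. Hk1 stood at 16.8 and 23 CPM, Hk2 at 16.9 and 26.2, Hk3 at 5.41 and 7.09 and Pfkp at 29.5 and 57. Eno3 made up 5.57% and 7.58% of their enolase UMIs.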
